A study of Mus musculus with 4 samples.

Results

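The genes of the proteasome, the protease that degrades ubiquitin-tagged proteins, were examined in RNA recovered with FLAG-tagged NANOS2 from mouse testis. Members were the genes whose symbol starts with Psm, a letter from a to g and a digit. Of 57 such RefSeq symbols, 47 had a probe on the array that matched by RefSeq accession, and all 47 passed the filter on dim signals, among 21589 features tested. Psma8, Psmg4, Psme2, Psme2b and 6 pseudogenes (Psma5-ps, Psmb5-ps, Psmb6-ps, Psmb6-ps2, Psmb7-ps1 and Psmb7-ps2) had no matched probe and are not analysed here. The 47 comprise 18 genes of the 20S core (Psma and Psmb), 6 ATPase genes (Psmc), 21 remaining genes (Psmd, Psme, Psmf and Psmg), and Psmc3ip and Psme3ip1, which the symbol rule takes although neither encodes a proteasome subunit.

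The study compared RNA pulled down through the FLAG tag (FLAG IP) with RNA labelled Input, which stands for the material before the pull-down, with 2 biological replicates per group and 4 single-colour Agilent arrays in all. Every sample, in both groups, came from male testis at postnatal day 7 of mice with a transgene (Tg) of 3xFLAG-Nanos2 that keeps the Nanos2 3'UTR. It is driven by an enhancer of Nanos2, itself a gene of male germ cells. The labels do not give the number of animals, which FLAG IP came from which Input, whether testes were pooled, the state of the endogenous Nanos2 gene or the conditions of the immunoprecipitation, and a description field names a fetal gonad where titles and characteristics give day 7. A FLAG pull-down from untagged testis was not analysed here, and a change between the groups is therefore not by itself evidence that NANOS2 bound the transcript.

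As background, the proteasome has a barrel-shaped 20S core of stacked alpha and beta rings, whose beta rings hold the proteolytic sites, and a 19S regulatory particle that binds ubiquitin chains, removes them and feeds the unfolded protein into the barrel. A ring of ATPases drives unfolding and lies in the base of the 19S particle, and non-ATPase subunits complete the base and the lid. Cells of the immune system, and cells exposed to interferon, replace the catalytic beta subunits with inducible ones. Germ cells have a variant alpha subunit, PSMA8, and the activator PA200, encoded by Psme4, is abundant in testis.

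A level below is a log2 signal less the array's own 75th percentile, averaged over the spots of a probe and taken from the brightest probe of a gene. A change is the FLAG IP mean less the Input mean (log2, n = 2 arrays per group), given with its limma standard error, and a gene was called at a limma adjusted p under 0.05 over all tested features. Levels of different genes come from different probes and are not compared with each other. The tissue was checked on marker lists. All 9 matched spermatogonial genes and all 10 Sertoli cell genes were detected and tested, and 6 of the spermatogonial genes were called higher in the FLAG IP while 0 were lower. Ret, 1 of the 6, was well above background on neither Input array, and Lhcgr, counted below among the Leydig cell genes, on neither FLAG IP array, so that each entered the test through the group where it was high and its call is not read as support. The spermatogonial signals, as multiples of the 75th percentile and summed over the list, were 22.7 and 23.7 in the Input and 36.9 to 45.0 in the FLAG IP. Sertoli cell genes had 3 of 10 lower (sums of 176 to 179 in the Input and 126 to 132 in the FLAG IP), Leydig cell genes 3 of 6 (28.2 to 37.3 and 13.3 to 17.1), and peritubular myoid cell genes 3 of 6 (94.0 to 105 and 65.7 to 68.5). Endothelial genes had 0 of 5 called (1.83 to 2.53 and 1.39 to 1.89) and red blood cell genes 1 of 2 tested lower (18.96 to 29.02 and 8.75 to 11.2). In the lists of these somatic cells no gene was called higher. Over all tested features 21.3% were called lower and 15.8% higher, and the list counts were not tested against these shares. The part of these cell types in the changes below was not tested. A level in these bulk samples sums over all cells, so few cells of a type and little RNA per cell cannot be told apart in it, and a change between the groups measures neither.

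Over all 47 members, 12 were called lower in the FLAG IP and 3 higher, that is 25.5% and 6.38%. Of all tested features 21.3% were called lower and 15.8% higher, and of 7723 features of similar signal 21.3% and 16.3%, so the share of members called lower was near the background. Both FLAG IP arrays lay below both Input arrays for 33 members and above them for 9, while 44.7% of all features and 48.7% of those of similar signal lay below, and 29.8% and 30.6% above. By class, the 20S core had 8 of 18 genes lower (44.4%), and 1 higher, against 21.5% and 17% of 10876 features of similar signal. No ATPase gene of 6 was lower, by limma, against 24.3% of 1139 features of similar signal, of which 11.3% were higher, and 2 of the 6 had an unadjusted p under 0.05. Among the remaining genes 2 of 21 were lower (9.52%), and 1 higher, against 21.3% and 16.4% of 7157 features of similar signal. The FLAG IP arrays lay below the Input arrays for 15 core genes and above for 1 (47.6% and 31.1% of features of similar signal), for 4 and 1 ATPase genes (57.8% and 23.6%) and for 12 and 7 remaining genes (48.7% and 30.7%). Similar signal means a mean level between percentiles 10 and 90 of the class or of all members. For the core this range was wide, −1.14 to 4.84, because the class holds dim inducible genes. In the brightest decile of all features by mean level 27.0% were lower and 10.2% higher. These shares describe the classes, and the difference between classes was not tested. With the replicate number as a block in the fit, 3 core genes, 0 ATPase genes and 1 remaining gene were lower. That fit called 2289 of 21589 features of all kinds lower.

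The median change was −0.59 for the 20S core, −0.22 for the ATPases and −0.26 for the remaining genes. The median over features of similar signal was −0.15, −0.27 and −0.16 in the same order, and −0.15 over all tested features. It was −0.29 in the brightest decile of all features. When each gene was centred on its own mean of the 4 arrays, the median 20S core gene stood at 0.36 and 0.23 on the Input arrays and at −0.36 and −0.19 on the FLAG IP arrays. The arrays of the groups were thus apart for the core. For the ATPases the corresponding values were 0.16 and 0.09 against −0.24 and −0.01, and for the remaining genes 0.10 and 0.03 against −0.21 and −0.03. In those classes FLAG IP 2 lay close to Input 2.

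The calls did not hold when either Input array was left out. Such a fit leaves 1 array in a group, which is assumed to vary like the other group, and takes the spread from the 2 arrays of the other group alone. Without Input replicate 1, and likewise without Input replicate 2, limma called 0 of the 15 called members, while all 15 kept their sign and the core median was −0.53 and −0.65. Of the 47 members 26 had an unadjusted p under 0.05 with all arrays, 10 without Input replicate 1 and 14 without Input replicate 2. Over all features the calls fell to 707 lower and 977 higher without Input replicate 1, and to 552 lower and 1010 higher without Input replicate 2. Without FLAG IP replicate 1 the core had 5 genes lower, since Psma3, Psma5, Psmb5 and Psmb8 were then not called (adjusted p = 0.082, 0.077, 0.063 and 0.052) and Psmb7 was (adjusted p = 0.027). The core had 9 genes lower when FLAG IP replicate 2 was left out. The median change of the core ranged from −0.65 to −0.49 over these fits. Between the replicates of the Input, 7 of 47 members were higher on array 2, and between those of the FLAG IP 38 of 47 were higher on array 2. In the Input the median of array 2 less array 1 was −0.12 for members and 0.0066 for all tested features. In the FLAG IP these medians were 0.11 and −0.043. Members thus tended to shift together between replicates and are not independent observations.

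The alpha ring, which forms the gate of the barrel, had 4 of its 7 measured genes lower and none higher. The shares over all tested features were 21.3% lower and 15.8% higher, and in the brightest decile 27.0% and 10.2%. Psma4 measured 2.85 and 2.76 on the Input arrays against 1.84 and 1.48 on the FLAG IP arrays. The groups did not overlap, and Psma4 fell by 1.15 ± 0.18 (adjusted p = 0.013), a 2.22-fold decrease. Psma6 measured 4.24 and 3.98 in the Input and 2.95 and 3.16 in the FLAG IP. It fell by 1.05 ± 0.17 (adjusted p = 0.014), again with separate groups. Psma3 measured 2.71 and 2.57 in the Input and 1.78 and 2.14 in the FLAG IP, and fell by 0.68 ± 0.18 (adjusted p = 0.044). Its call was lost without the filter on dim probes (adjusted p = 0.085). Psma5 measured 5.33 and 5.28 against 4.62 and 4.82, and fell by 0.59 ± 0.15 (adjusted p = 0.038). This call was lost under quantile normalization (−0.23, adjusted p = 0.23) and without that filter (adjusted p = 0.062).

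The other alpha genes had smaller changes. Psma2 had a change of −0.41 and Psma1 of −0.40, both with FLAG IP arrays below Input arrays and neither called (adjusted p = 0.070 and 0.097). Psma7 had the smallest change of the ring, at −0.35 ± 0.21 (adjusted p = 0.24). It measured 5.07 and 4.68 in the Input against 4.37 and 4.69 in the FLAG IP, so that FLAG IP 2 reached the level of Input 2.

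The constitutive beta ring had 3 of 7 genes lower and none higher, against 21.3% and 15.8% of all tested features. Psmb2, a structural beta subunit, had the largest change of all members. It measured 1.40 and 1.28 in the Input and −0.25 and 0.20 in the FLAG IP, and fell by 1.36 ± 0.20 (adjusted p = 0.012), a 2.57-fold decrease. Psmb1 measured 4.34 and 3.99 in the Input and 3.21 and 3.32 in the FLAG IP, and fell by 0.90 ± 0.18 (adjusted p = 0.021). Both genes had separate groups. Psmb3 had the smallest change of this ring, from 5.02 and 4.89 to 4.66 and 4.70, at −0.28 ± 0.14 (adjusted p = 0.17), and Psmb4 was at −0.46 (adjusted p = 0.063).

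The catalytic beta subunits are Psmb5, with chymotrypsin-like activity, Psmb6, with caspase-like activity, and Psmb7, with trypsin-like activity. Psmb5 measured 3.88 and 3.80 in the Input and 3.19 and 3.30 in the FLAG IP, and fell by 0.59 ± 0.14 (adjusted p = 0.032), a call lost under quantile normalization (−0.43, adjusted p = 0.059). Psmb6 measured 4.79 and 4.51 against 4.0 and 4.19, a change of −0.56 ± 0.17 (adjusted p = 0.060). Psmb7 measured 3.43 and 3.35 against 2.96 and 2.57, a change of −0.62 ± 0.19 (adjusted p = 0.056). The changes of the 3 were within their errors of each other, although Psmb5 alone was called. All 14 constitutive core genes had a negative change, and 13 of the 14 had both FLAG IP arrays below both Input arrays. Features of similar signal to the whole core did so in 47.6% of cases, but their levels ran from −1.14 to 4.84. The constitutive core genes were brighter, with a median level of 3.67. Among features of similar signal to the ATPases, at levels of 3.14 to 4.35, 57.8% lay below.

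**Figure D1:**
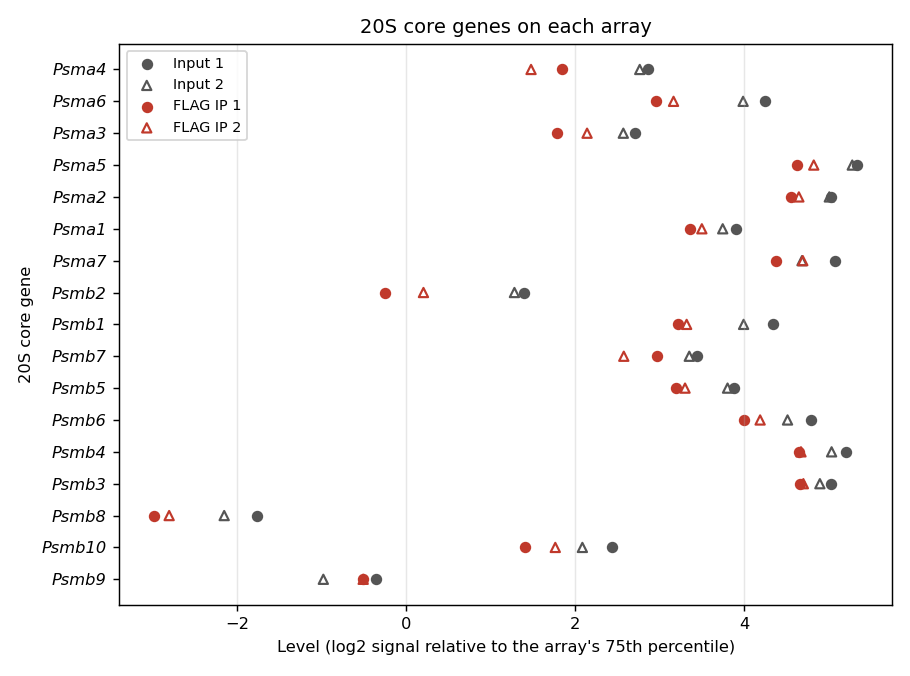
Level of each 20S core gene on each array (log2 signal relative to the 75th percentile of the array), with Input arrays in grey and FLAG IP arrays in red. The FLAG IP arrays lie to the left of the Input arrays for every gene shown except Psma7 and Psmb9; Psmb11, which was dim, is not shown.

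The inducible subunits replace the catalytic ones in the immunoproteasome, PSMB8 for PSMB5, PSMB9 for PSMB6 and PSMB10 for PSMB7. Psmb8 measured −1.77 and −2.15 in the Input and −2.98 and −2.80 in the FLAG IP, and fell by 0.93 ± 0.19 (adjusted p = 0.023). Its call was lost without the filter on dim probes (adjusted p = 0.055). Psmb10 measured 2.43 and 2.08 against 1.41 and 1.76, a change of −0.67 ± 0.21 (adjusted p = 0.062). Psmb9 did not share this pattern in its values. Its FLAG IP arrays, both at −0.51, lay between Input 1 at −0.35 and Input 2 at −0.98, and its change was 0.16 ± 0.24 (adjusted p = 0.64). The change of Psmb9 exceeded that of its constitutive partner Psmb6 by 0.71, whereas the corresponding difference was −0.34 for Psmb8 less Psmb5 and −0.049 for Psmb10 less Psmb7. These differences were not tested.

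Of 10 macrophage markers 8 were tested on the same arrays, and 7 of these were called lower, against 21.3% of all tested features. Their summed signal was 14.0 and 14.7 in the Input and 9.03 and 9.07 in the FLAG IP, and none was undetected on every array. The part of macrophage RNA in the values of the inducible subunits was not tested. Among the genes of antigen presentation and interferon response that were listed with the inducible proteasome, 1 of 11 tested (of 13 listed) was lower and 3 were higher, against 21.3% and 15.8% of all features. Counts this small are not read as a result about the list. B2m, the light chain of class I molecules, fell by 1.03 ± 0.14 (adjusted p = 0.0099). The interferon-related transcription factors Stat2, Irf1 and Irf8 rose by 1.33 ± 0.26, 1.05 ± 0.14 and 0.62 ± 0.16 (adjusted p = 0.021, 0.0097 and 0.037), but none of these was called when arrays were scaled to spike-in spots, where they stood at 0.39, 0.12 and −0.31. The peptide transporter genes Tap1 and Tap2 had changes of −0.28 and −0.70 and were not called (adjusted p = 0.39 and 0.085). These genes were named after their values were seen.

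Psmb11, the beta subunit of the thymus, was not well above background on either Input array and entered the test through the FLAG IP arrays alone. It measured −6.97 and −6.50 in the Input and −5.44 and −5.91 in the FLAG IP, and was at least 1.70-fold higher in the FLAG IP (adjusted p = 0.033), taking the lowest signal well above background as the limit in the Input. Its other probe was not above background on any of the 4 arrays. Averaging its probes ended the call (adjusted p = 0.057), as did trend and robust moderation (adjusted p = 0.055), testing without a filter on dim probes (adjusted p = 0.082), leaving out FLAG IP replicate 1 (adjusted p = 0.069) and spike-in scaling, where the change was 0.13 (adjusted p = 0.75). Because this gene could enter the test only by being higher, its call is not read as a result about the class.

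Among the ATPase genes 1 of 6 was called, and it was higher in the FLAG IP, against 11.3% of features of similar signal. Psmc4 rose, with 3.60 and 3.38 on the Input arrays and 4.13 and 4.39 on the FLAG IP arrays. Its groups were separate in the direction opposite to the core, and its change of 0.77 ± 0.17 (adjusted p = 0.029), a 1.71-fold increase, became −0.16 when arrays were scaled to spike-in spots, where the median of all features was −1.08. Relative to that median Psmc4 stood at 0.92 under that scaling. A further probe of Psmc4 gave 0.70 ± 0.19 (adjusted p = 0.047 in a fit over all probes). Without FLAG IP replicate 2 the change was 0.64 and no longer called (adjusted p = 0.055).

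The other 5 ATPase genes were not called. Psmc3 measured 3.58 and 3.29 in the Input and 2.72 and 3.00 in the FLAG IP, a change of −0.57 ± 0.19 (adjusted p = 0.070), and Psmc2 and Psmc1 had changes of −0.41 and −0.38. Psmc6 was nearly level on all arrays, at 4.42 and 4.41 against 4.35 and 4.37. Psmc5 overlapped between the groups, at 2.97 and 3.23 against 2.99 and 3.37, with a change of 0.082 ± 0.20. The log2 ratio of Psmc4 to the mean of the other ATPases within an array was −0.34 and −0.47 in the Input and 0.64 and 0.63 in the FLAG IP. This ratio does not depend on the scaling between arrays. Psmc4 was set apart after its change was seen, so the ratio is a description, and the difference was not tested.

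Among the 11 non-ATPase subunits of the 19S particle, 1 gene was lower and 1 higher, against 21.3% and 15.8% of all tested features. Psmd8, a lid subunit, measured 2.31 and 2.19 in the Input and 1.58 and 1.47 in the FLAG IP, and fell by 0.73 ± 0.14 (adjusted p = 0.021). Psmd1, the large scaffold of the base, measured 2.13 and 2.33 against 2.80 and 2.81, and rose by 0.57 ± 0.15 (adjusted p = 0.038), a change that became −0.36 under spike-in scaling. With either FLAG IP array left out Psmd1 kept its size, at 0.58 and 0.57, but not its call (adjusted p = 0.067 and 0.065). The groups of both genes were separate.

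Psmd11, a lid subunit, followed Psmd1 in its values, with 4.68 and 4.52 in the Input, 5.18 and 4.93 in the FLAG IP and a change of 0.46 ± 0.17 (adjusted p = 0.088). It passed under normexp background correction (adjusted p = 0.049), quantile normalization (0.78, adjusted p = 0.034) and trend and robust moderation (adjusted p = 0.042), and was −0.48 under spike-in scaling. Psmd11 was not called under the strict filter (adjusted p = 0.078) or the mean over probes (0.090). Nor was it called without the filter on dim probes (adjusted p = 0.13) or with the replicate block (0.19). Psmd3 had the smallest change of all members, at 0.0083 ± 0.15, with overlapping groups at 5.61 and 5.50 against 5.47 and 5.66. The ubiquitin receptor gene Psmd4 was at −0.11 and the deubiquitinase gene Psmd14 at −0.13 (adjusted p = 0.57 and 0.58). The other subunits ranged from −0.44 for Psmd6, through Psmd7, Psmd2 and Psmd12, to 0.081 for Psmd13. The non-ATPase subunits thus spanned negative and positive changes, with a median of −0.13.

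Sem1 and Adrm1 encode 19S subunits outside the symbol rule. Sem1 measured 5.78 and 5.66 in the Input and 4.86 and 4.91 in the FLAG IP, and fell by 0.84 ± 0.14 (adjusted p = 0.015; −0.42 and 0.062 under quantile normalization). Adrm1, a ubiquitin receptor, measured 2.83 and 2.41 against 1.61 and 2.31 and was not called, at −0.66 ± 0.30 (adjusted p = 0.14), while its other probe gave −0.82 (adjusted p = 0.017 in the fit over all probes).

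None of the genes for assembly chaperones was called by limma at its brightest probe, although 3 of the 6 had an unadjusted p under 0.05. Of those that assist the 19S base, Psmd10, which encodes gankyrin, measured 0.83 and 0.64 in the Input and −0.22 and 0.28 in the FLAG IP, a change of −0.70 ± 0.22 (adjusted p = 0.062). It was called under normexp background correction (adjusted p = 0.025), trend and robust moderation (0.038) and spike-in scaling. Spike-in scaling called 13859 of 21589 features lower, so a call there says little about a single gene. Psmd10 was not called under quantile normalization (adjusted p = 0.066), the strict filter (0.052) or the mean over probes (0.065). Nor was it called without the filter on dim probes (adjusted p = 0.13) or with the replicate block (0.11). Psmd9 was at −0.52 (adjusted p = 0.051). Psmd9 was called under normexp (adjusted p = 0.039), quantile normalization (0.049), the strict filter (0.044), the mean over probes (0.037), trend and robust moderation (0.030) and spike-in scaling. It was not called without the filter on dim probes (adjusted p = 0.077) or with the replicate block (0.15). Psmd5, with 3.29 and 3.28 in the Input and 3.42 and 3.51 in the FLAG IP, was at 0.18 (adjusted p = 0.33). Of those that assist the core, Psmg1 measured 2.13 and 1.83 against 0.77 and 1.40, a change of −0.89 ± 0.26 (adjusted p = 0.055). Its change was −1.21 when FLAG IP replicate 2 was left out. It was called under the strict filter on dim probes (adjusted p = 0.044), normexp background correction (0.021), trend and robust moderation (0.030) and spike-in scaling. Psmg1 was not called under quantile normalization (adjusted p = 0.056) or the mean over probes (0.058). Nor was it called without the filter on dim probes (adjusted p = 0.12) or with the replicate block (0.086). Psmg3 was at −0.33. Psmg2 measured 2.45 and 2.40 in the Input and 2.71 and 2.67 in the FLAG IP, a change of 0.26 ± 0.13 (adjusted p = 0.18). The chaperone genes thus held values of both signs. Pomp, the core maturation factor, had a change of −0.23 (adjusted p = 0.26).

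The activator genes differed among themselves. Psme1, which encodes the alpha subunit of the interferon-inducible activator PA28, measured 4.44 and 4.48 in the Input and 3.57 and 3.60 in the FLAG IP. It fell by 0.88 ± 0.13 (adjusted p = 0.012), a 1.83-fold decrease, with replicates close together and separate groups. Psme3, the nuclear PA28 subunit, measured 1.28 and 1.2 against 1.31 and 1.31, a difference of 0.072 ± 0.13 (adjusted p = 0.69). Psme4 (NM_134013), encoding the PA200 activator that is abundant in testis, stood at −0.0027 and −0.11 in the Input and at 0.0027 and 0.035 in the FLAG IP, a change of 0.075 ± 0.14 (adjusted p = 0.69). Psmf1, encoding the regulator PI31, was at −0.35 ± 0.16 (adjusted p = 0.15), from −0.22 and −0.065 in the Input to −0.37 and −0.62 in the FLAG IP.

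Both genes that carry the symbol without encoding a subunit were lower. Psmc3ip encodes HOP2, a partner of the meiotic recombinases. It measured 1.06 and 0.89 in the Input and −0.30 and 0.11 in the FLAG IP, and fell by 1.07 ± 0.19 (adjusted p = 0.018), with −1.0 ± 0.14 at its other probe. Psme3ip1, whose product binds the nuclear PA28 activator, measured 2.67 and 2.65 against 2.19 and 2.17, and fell by 0.48 ± 0.13 (adjusted p = 0.047), a call lost when FLAG IP array 1 (adjusted p = 0.074) or array 2 (0.078) was left out and under quantile normalization (adjusted p = 0.070). Without these the proteasome genes had 10 of 45 lower, or 22.2%, near the 21.3% of all tested features.

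**Figure D2:**
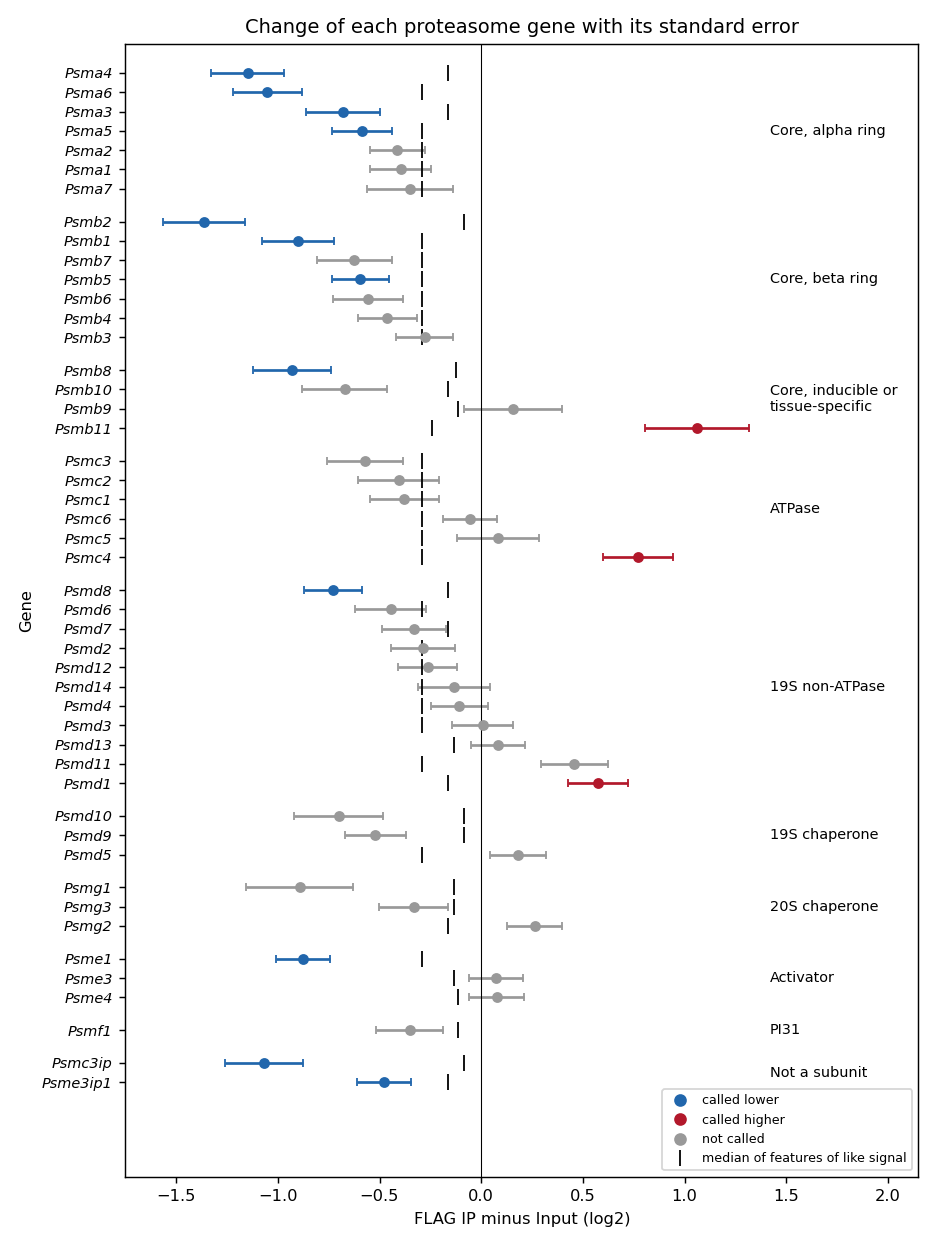
Change of each of the 47 members (FLAG IP minus Input, log2) with its limma standard error, grouped by role, with called genes in colour and a tick at the median change of the decile of all features that has like signal. All constitutive core genes lie below 0 and all but Psmb3 below their tick, while Psmc4, Psmd1 and Psmd11 lie above 0 and above their ticks.

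Read against signal, the core stood lower and the other classes near the middle. All tested features were divided into deciles by mean level, and 26 of the 47 members fell in the brightest decile, whose median change was −0.29. In that decile 27.0% of features were lower and 10.2% higher. Of the 18 core genes 15 lay below the median of their own decile, by a median of 0.30. Ranked among the changes of its decile, the median core gene stood at percentile 25.3, the median ATPase gene at 55.3 and the median remaining gene at 52.7. Psmb2 ranked at 1.69, Psma4 at 2.89, Psma6 at 5.07, Psmb1 at 9.01 and Psme1 at 9.75. At the other end Psmc4 ranked at 92.9, Psmd11 at 86.9 and Psmd1 at 82.1. Across the 46 members well above background on all arrays, level and change were weakly related (r = 0.21, rho = 0.21, a description over genes that share the arrays). For the 17 core genes among them r was 0.22 and rho 0.49, so by rank the dimmer core genes tended to have the lower changes. Over the 19911 features well above background on all arrays r was −0.047 and rho −0.064.

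**Figure D3:**
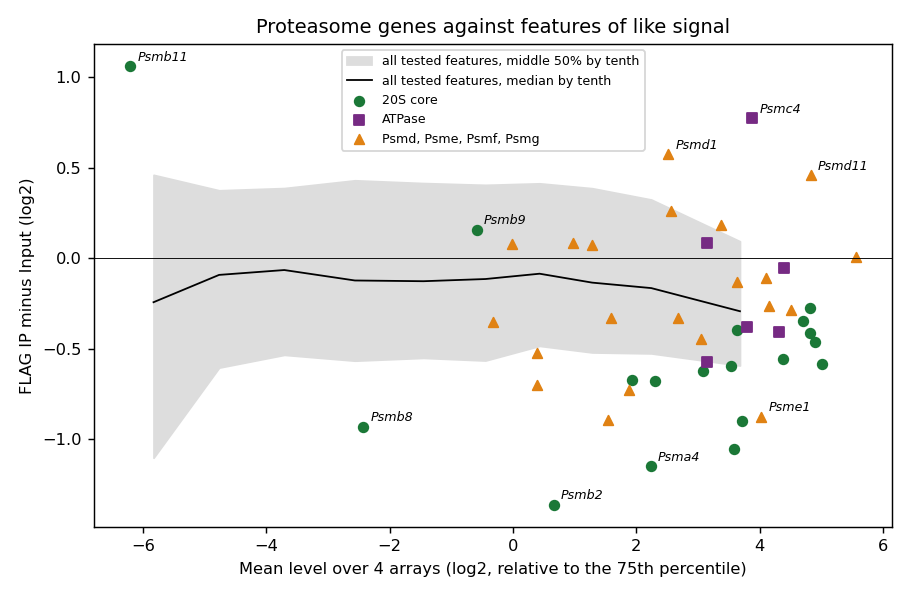
Change of each proteasome gene (FLAG IP minus Input, log2) against its mean level over the 4 arrays, with the median and the middle 50% of all tested features by decile of level. For 15 of the 18 core genes the change was below the median of the gene's own decile. The changes of Psmc4, Psmd1 and Psmd11 were above the middle 50% of theirs. Psmc4 (mean level 3.87) and Psmd11 (4.83) were brighter than the median level of their decile (3.68). Psmb11, at the left, entered the test through the FLAG IP arrays alone.

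Probes of the same gene agreed in direction for 11 of the 15 members that had more than 1 tested probe. Agreement was close for Psma4 (−1.15 and −1.09), Psmb8 (−0.93 and −0.79) and Psmc4. For Psmd12, a lid subunit, the brightest probe gave −0.26 while the others gave −0.63 and −1.19, of which the last was called (adjusted p = 0.015 in the fit over all probes). For Psmd14 the brightest gave −0.13 and the other −0.73 (adjusted p = 0.047). Psmf1 had probes of opposite sign, −0.35 and 0.48, neither of them called. Psmc5, Psme4 and Psmg2 also had probes of opposite sign, with values between −0.073 and 0.26. The values of Psmd12, Psmd14 and Psmf1 therefore depend on the probe. In the limma fit over all probes the brightest probes of Psmd7 and Psmd9 were not called (adjusted p = 0.16 and 0.053). Their other probes, at −0.53 and −0.60, were called lower (adjusted p = 0.041 and 0.031). Calls among the remaining genes thus depend in part on the probe chosen. Psma5, Psmb5, Psmb6 and Psmb7 have pseudogenes, and hybridisation of their transcripts to these probes was not tested.

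**Figure D4:**
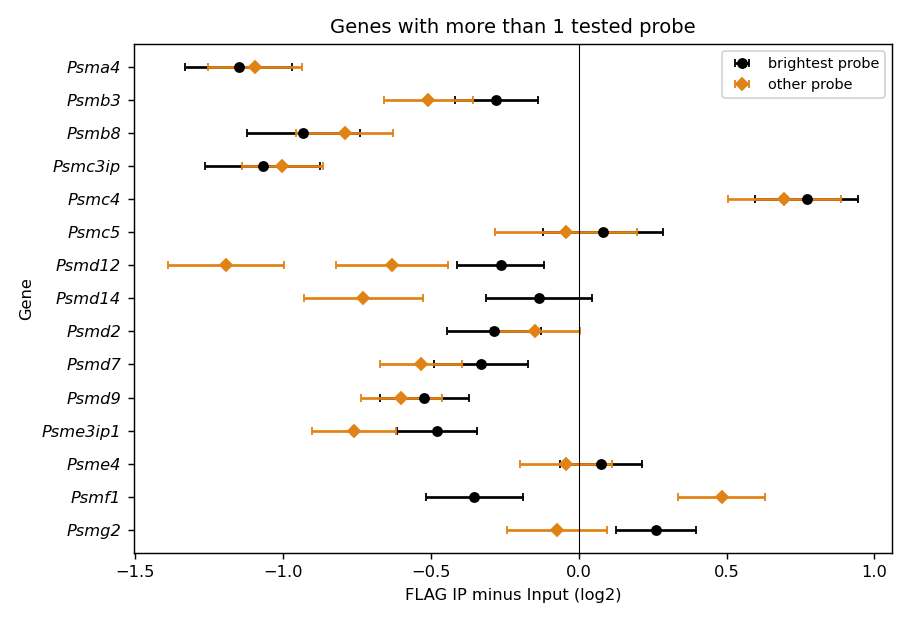
Change at each tested probe (FLAG IP minus Input, log2, with standard error from a fit over all probes) for the 15 members with more than 1 tested probe, with the brightest probe in black. The probes of Psmd12, Psmd14 and Psmf1 lie apart from each other.

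Of 33 further genes of the ubiquitin and proteasome system, 31 were tested, 3 were lower and 3 higher, with a median of −0.12. Of all tested features 21.3% were lower and 15.8% higher, so both counts lay below the background, and the genes named next are single genes of the list. Zfand5, whose product stimulates the proteasome, measured 2.52 and 2.44 in the Input and 4.12 and 4.17 in the FLAG IP and rose by 1.66 ± 0.14 (adjusted p = 0.0046), a call lost under spike-in scaling (0.73, adjusted p = 0.077). Its other probe gave 0.38 and was not called (adjusted p = 0.097). Uba6, a ubiquitin-activating enzyme, rose by 1.31 ± 0.14 (adjusted p = 0.0064), with 0.71 and −0.23 at its other probes, a call lost under spike-in scaling (0.38). Ube3c, a ligase found at the proteasome, rose by 0.88 ± 0.13 at 1 probe and 0.87 at the other, a change that became −0.054 under spike-in scaling. Ube2n, which builds K63-linked chains, fell by 1.30 ± 0.19 (adjusted p = 0.011), with −0.36 and −0.40 at its other probes, and averaging them ended its call (adjusted p = 0.057). Sem1, described above, was also among the lower genes and was named after its values were seen.

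Set beside families of like function or abundance, cytosolic ribosomal protein genes had 60 of 90 members lower and a median of −0.71. Mitochondrial ribosomal protein genes had 38 of 76 lower and a median of −0.54, and ubiquitin-specific protease genes had 4 of 40 lower, 10 higher and a median of 0.26. The 20S core, at 8 of 18 and −0.59, lay between the first and the last of these, and no test of the difference was made. Over all tested features 21.3% were lower and 15.8% higher. The families differed in level, with median levels of 5.43, 2.26 and 0.39 in the order named. Less the median of each gene's own decile, their median changes were −0.44, −0.38 and 0.40, and that of the core was −0.30. By that measure the core fell less than the cytosolic and the mitochondrial ribosomal protein genes.

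The scaling set where 0 lies. Under spike-in scaling the median of all features was −1.08. Called lower were 13859 of 21589 tested features and 40 members. The core, ATPase and remaining medians were −1.52, −1.15 and −1.196. Relative to the median of all features these were −0.44, −0.072 and −0.12, as without that scaling. Quantile normalization gave −0.36 for the core, 0.020 for the ATPases and −0.027 for the remaining genes. It called 6 core genes lower, and 4176 of 21589 features of all kinds. The core was also the lowest of the 3 classes under normexp, the strict filter and the mean over probes, and with each array left out. The replicate block, the moderation and the filter left out cannot move the class medians, and spike-in scaling moves all classes alike. Without the filter the median of all features was 0.042.

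**Figure D5:**
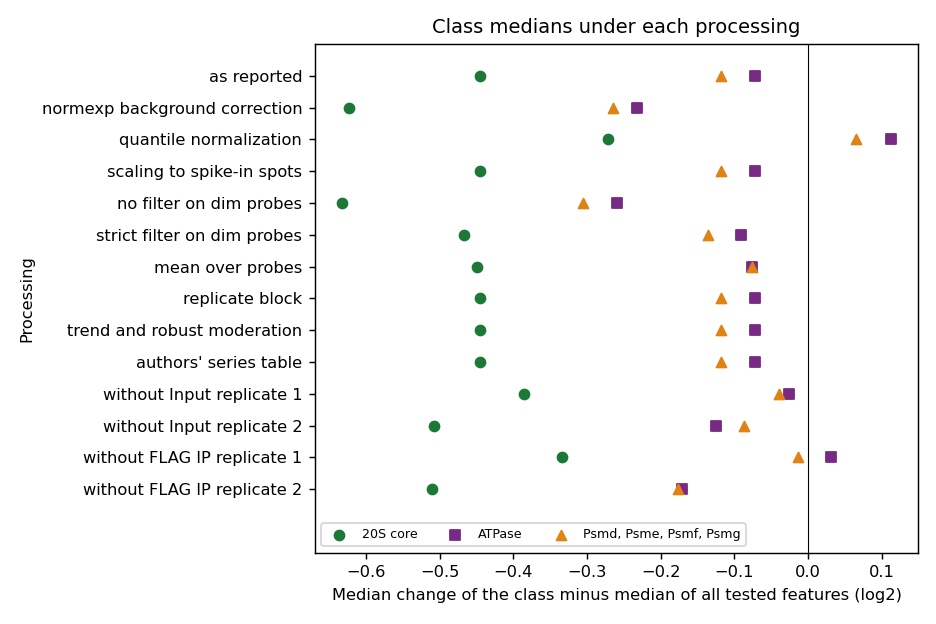
Median change of each class less the median change of all tested features (log2) under each way of processing the arrays. The 20S core lies between −0.63 and −0.27 in all of them, and the ATPases and the remaining genes lie between −0.30 and 0.11. The replicate block, the moderation and spike-in scaling cannot move these differences. Leaving out the filter moves them through the median of all features, which became 0.042.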

How the data were processed

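RNA from 2 FLAG IP and 2 Input samples was hybridised to single-colour Agilent mouse arrays, all on 1 slide and scanned in 1 scan. The deposited files hold, per the file headers, spot intensities from Feature Extraction (version 9.5 per the submitters' processing notes). The deposited series table of log2 values equalled log2 processed signal less a constant per array, within 0.01 for 99.6% of probes. Processed signals were divided by the 75th percentile of the array, taken to log2 and averaged over spots of a probe, leaving out outlier spots and control spots. A probe was kept if it stood well above background throughout 1 group or the other, and the brightest probe stood for a gene. Of 41174 probes, 22951 (55.7%) were named through a RefSeq table of assembly GRCm38.p6 by accession. Between 66.3% and 68.4% of probes were well above background, none was saturated, and the number of arrays limits precision. Replicates are biological per the design text but no source names animals.

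The group comparison used limma 3.58.1 (R 4.3.3) with two-sided tests (Benjamini-Hochberg over 21589 features), a procedure tested on simulated data. Probes without a matched symbol stayed in the fit as features of their own. Alternatives were normexp with offset 50 on median signal and median background (used in place of a mean signal column), quantile normalization, scaling to spike-in spots, other filters, the mean over probes, a replicate block, trend and robust moderation, the authors' deposited table, and leaving out each array. Array values are given for up to 3 called members with the largest change and the member with the smallest change in each subclass, for the catalytic and inducible subunits, Psmb11, Psme4 and Psmc3ip, and for the further ubiquitin genes called with the largest changes; others given in full were chosen after their values were seen. The members, the lists of ubiquitin and proteasome system, antigen presentation and cell type genes, and the tests were chosen with earlier results of these data known. A gene of the ubiquitin list is counted but its own result is not reported here.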

Additional observations from a re-analysis of the deposited data

How the results depend on the processing

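With all arrays limma called 4600 features lower and 3409 higher; among the members 12 lower and 3 higher; 8 core, 0 ATPase and 2 remaining genes lower. Normexp gave 4269 features of all kinds, 20 members, 1 ATPase gene and 5 remaining genes lower. Quantile normalization gave class medians of −0.36 (core), 0.020 (ATPase, of opposite sign) and −0.027 (remaining). Scaling to spike-in spots gave 13859 features lower and 672 higher (4.62% of calls higher, against 42.6%), 40 members lower and 0 higher, 16 core, 5 ATPase and 17 remaining genes lower, and medians of −1.52, −1.15 and −1.196. Without a filter 3019 features were lower, 0 members higher and 5 core genes lower. Psma3, Psma5 and Psmb8 were then not called (adjusted p = 0.085, 0.062 and 0.055). Nor were Psmb11, Psmc4, Psmd1 and Psme3ip1 (adjusted p = 0.082, 0.059, 0.061 and 0.058). The strict filter and the mean over probes each left 4 remaining genes lower. Trend and robust moderation gave 22 members, 14 core, 1 ATPase and 5 remaining genes lower. Leaving out 1 array gave 552 to 4572 features lower, 977 to 3726 higher, 0 to 15 members lower, 0 to 1 higher, 0 to 9 core genes and 0 to 5 remaining genes lower, and medians of −0.65 to −0.49 (core), −0.31 to −0.12 (ATPase) and −0.32 to −0.17 (remaining). The deposited table gave 12 and 3 members. The cause of these differences was not tested.

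The labels do not say whether the replicate numbers pair the samples. Deviations of same-numbered arrays correlated at −0.38, which with 2 arrays per group cannot settle the question. With the number as a replicate block 2289 features were lower and 2269 higher, 5 members lower and 0 higher, and 3 core and 1 remaining genes lower. Of the 15 called members 5 kept their call, namely Psma4, Psma6, Psmb2, Psme1 and Psmc3ip. The crossed pairing, added after seeing the data, gave 20 members, 12 core, 1 ATPase and 5 remaining genes lower. A block for slide or scan could not be fitted, since there was 1 of each.

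Single genes turned sign as follows. Psmd3 was at −0.015 under normexp, and Psmf1 at 0.065 as a mean over probes. Under quantile normalization Psmb3 was at 0.087, Psmc6 at 0.20, Psmd14 at 0.034, Psmd4 at 0.12 and Pomp at 0.12. Under spike-in scaling Psmb9 was at −0.78, Psmc5 −0.85, Psmc4 −0.16, Psmd5 −0.75, Psmd3 −0.92, Psmd13 −0.85, Psmd11 −0.48, Psmd1 −0.36, Psmg2 −0.67, Psme3 −0.86, Psme4 −0.86, Ube3c −0.054 and Irf8 −0.31. Leaving out 1 array in turn gave −0.11 to 0.27 for Psmc5, −0.087 to 0.10 for Psmd3, −0.16 to 0.47 for Psmb9, −0.32 to 0.047 for Psmd14 and −0.58 to 0.026 for Tap1.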
